A study of Mus musculus with 8 samples.

Results

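The 8 genes described here are 6 interferon-inducible GTPases (Tgtp1, Gbp2, Gbp3, Gbp5, Gbp7 and Irgm1), the tryptophan-degrading enzyme Ido1 and the cytokine signalling inhibitor Socs1. They were taken by gene symbol from the array's annotation, and the probe sets that list a member and no other gene numbered 9 of 16755, since Tgtp1 had 2 probe sets and each of the others 1. The array measured 14860 genes with such probe sets. The genes were grouped with their lower signal in the Gadd45a muscles already known, so the difference between the plasmids is given for them as a description without a test.

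RNA was measured on 8 microarrays of tibialis anterior, the fast-twitch muscle along the shin, from male mice aged 8 weeks. In the Gadd45a group (4 arrays) the right muscle had been transfected with pCMV-FLAG-Gadd45a, which makes tagged Gadd45a, a nuclear stress protein, from a viral promoter. In the control group (4 arrays) the left muscle had been transfected with pcDNA3, the empty plasmid. Both groups came from ATF4 mKO mice, in which the stress-responsive transcription factor ATF4 is deleted in muscle, and both were harvested on day 7. The labels do not name the promoter that drives the deletion, and say nothing of separate animals for the arrays of a group, so the spread between arrays may be partly technical. Plasmid, leg and the making of a foreign protein cannot be told apart in this design, and no muscle without plasmid or with intact ATF4 was analysed here.

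Interferon-gamma is a cytokine made mainly by activated T cells and natural killer cells. Its receptor, built from Ifngr1 and Ifngr2, signals through the kinases Jak1 and Jak2 to genes with gamma-activated sites (GAS) in their promoters. One such gene is Irf1, whose product binds interferon-stimulated response elements (ISRE). Type I interferons act through a complex that contains Stat2 and Irf9 and binds ISRE as well. The guanylate-binding proteins (Gbp genes) and the immunity-related GTPases (Tgtp1 and Irgm1) are known for attacking the vacuoles of intracellular microbes, Irgm1 as a regulator of the other immunity-related GTPases. Ido1 starts the breakdown of tryptophan to kynurenine, and Socs1 is induced by the same cytokine and shuts off the Janus kinases. Muscle fibres, endothelium and macrophages can all respond to interferon-gamma.

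The promoters are shown first because the choice of the genes by their signal did not use their sequence. The genes were, however, grouped as known interferon-inducible genes, and the Gbp genes are neighbours of the same family. The shares of motif matches are therefore a description without a test. RefSeq starts on build GRCm38.p6 were found for 7 of the 8 genes, with 8 promoters in all, and the 250 bases before each start were searched on both strands for an ISRE-type motif, read as GAAA, any 2 bases and GAAA again, and for a GAS-type motif, TTCNNNGAA, which reads the same on the other strand. The last 120 bases before the start are printed below (180 for Gbp5), 5′ to 3′ in the direction of the gene, with every match to either motif in capitals. An ISRE-type match that lies on the opposite strand reads TTTC, 2 bases and TTTC here.
Tgtp1: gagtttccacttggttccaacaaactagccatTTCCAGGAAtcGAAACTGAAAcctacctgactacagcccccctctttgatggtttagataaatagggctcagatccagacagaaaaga
Irgm1: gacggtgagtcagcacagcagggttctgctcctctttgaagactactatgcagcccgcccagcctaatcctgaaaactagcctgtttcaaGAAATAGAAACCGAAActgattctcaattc
Gbp2: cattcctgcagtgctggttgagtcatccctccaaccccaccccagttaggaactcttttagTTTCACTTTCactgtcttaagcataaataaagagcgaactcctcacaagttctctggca
Gbp3: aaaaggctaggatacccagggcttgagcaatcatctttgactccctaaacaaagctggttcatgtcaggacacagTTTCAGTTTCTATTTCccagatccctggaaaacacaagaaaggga
Gbp5: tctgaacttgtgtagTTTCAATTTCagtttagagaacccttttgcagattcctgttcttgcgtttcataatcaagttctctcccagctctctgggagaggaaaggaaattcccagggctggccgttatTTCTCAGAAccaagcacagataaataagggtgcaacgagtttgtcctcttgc
Gbp7: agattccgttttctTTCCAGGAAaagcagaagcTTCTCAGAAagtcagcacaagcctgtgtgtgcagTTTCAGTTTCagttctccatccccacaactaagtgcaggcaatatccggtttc
Socs1: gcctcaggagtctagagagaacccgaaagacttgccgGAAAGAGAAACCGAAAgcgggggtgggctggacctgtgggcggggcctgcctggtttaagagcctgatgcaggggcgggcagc

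These windows lie at chr11:48992247-48992366 on the minus strand for Tgtp1, at chr11:48871421-48871540 on the minus strand for Irgm1, and at chr16:10785537-10785656 on the minus strand for Socs1. The 4 guanylate-binding protein genes are neighbours on chromosome 3, all on the plus strand, with windows at chr3:142496754-142496933 (Gbp5), chr3:142530216-142530335 (Gbp7), chr3:142559924-142560043 (Gbp3) and chr3:142620543-142620662 (Gbp2). All 7 genes held an ISRE-type match, and 7 of their 8 promoters did (87.5%), against 978 of 32851 promoters in the whole table (2.98%). The promoter without one belongs to a second annotated start of Gbp3, which had neither motif. Of the 11894 genes with their own probe set and a promoter in the table, 395 (3.32%) held this match. The GAS-type match was found in 3 of the 7 genes (Tgtp1, Gbp5 and Gbp7), against 892 of the 11894 genes (7.5%).

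Positions are counted back from the annotated start, the base just before it being -1. In Tgtp1 a GAS-type match at -88 to -80 stood next to an ISRE-type match at -77 to -68. Gbp7 held GAS-type matches at -106 to -98 and at -87 to -79 and an ISRE-type match at -53 to -44. In Irgm1 and Socs1 an overlapping pair of ISRE-type matches made a run of 3 GAAA units spaced by pairs of bases, at -30 to -15 in Irgm1 and at -83 to -68 in Socs1. Gbp3 held a like overlapping pair at -45 to -30, and Gbp2 held 1 match at -59 to -50. Gbp5 was the gene whose ISRE-type match lay farthest from the start, at -165 to -156, with GAS-type matches at -52 to -44 and, outside the printed window, at -245 to -237. No match to one motif overlapped a match to the other in these genes, while such overlaps occurred in 18 of the 32851 promoters. A match is a description of letters and does not show that a factor binds there.

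**Figure D1:**
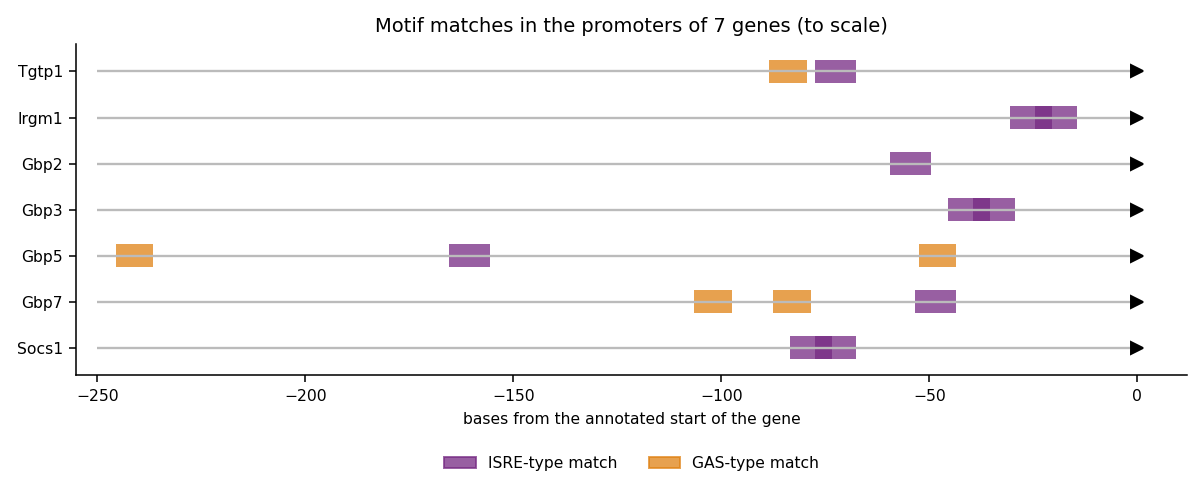
Motif matches in the 250 bases before the annotated start of 7 of the genes, with the distance from the start in bases on the horizontal axis and 1 gene per row (arrowhead: the start). Every row holds at least 1 ISRE-type match, and Tgtp1, Gbp5 and Gbp7 also hold GAS-type matches.

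All 9 probe sets were dimmer in the Gadd45a muscles than in the control muscles, with differences between the group means of -1.67 to -0.42 log2 units. The median over the 8 genes, with the brighter probe set of Tgtp1, was -0.89, while the median over all probe sets was -0.065. In 8 of the 9 probe sets every Gadd45a array lay below every control array, which was so for 13.8% of all probe sets. All 9 had an adjusted p under 0.05 in the fit across all probe sets, where 10.3% of probe sets were called lower and 21.1% in either direction. Because the genes were chosen from this comparison, nothing is read from these counts. In whole muscle, fewer cells of a type and less RNA per cell cannot be told apart.

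Of the immunity-related GTPases, Tgtp1 had the most negative difference of the set, while Irgm1 came after Gbp7. Tgtp1, also called Irgb6, is an effector that coats microbial vacuoles. Its brighter probe set read 7.16, 8.11, 8.68 and 8.13 log2 units on Gadd45a arrays 1 to 4, against 9.27, 9.86, 9.78 and 9.83 on control arrays 1 to 4. The mean was 8.02 ± 0.63 with Gadd45a plasmid and 9.69 ± 0.28 with control plasmid (SD, n = 4 each), a difference of -1.67, or 0.315 times the control signal. The groups did not overlap, the Gadd45a arrays spread over a wider range, and array 1 was the lowest of each group. Only 4 of all probe sets on the array had a more negative difference, as its rank from the lowest was 5.

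The second probe set of Tgtp1 read 4.5, 5.55, 6.63 and 5.94 with Gadd45a plasmid and 6.34, 7.46, 7.47 and 7.41 with control plasmid. Its means were 5.66 ± 0.89 and 7.17 ± 0.56 (SD, n = 4 each), a difference of -1.51. Here the groups overlapped, since Gadd45a array 3 read above control array 1. Tgtp1 has a near-identical neighbour, and whether these probe sets separate the copies was not tested. Irgm1, the regulator of the family, read 9.16, 9.61, 9.95 and 9.7 with Gadd45a plasmid, against 10.19, 10.78, 10.52 and 10.74 with control plasmid. Its means were 9.61 ± 0.33 and 10.56 ± 0.27 (SD, n = 4 each), a difference of -0.95 and a ratio of 0.518. The groups did not overlap, and array 1 was the lowest of each.

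Among the guanylate-binding proteins Gbp7 differed by the widest margin. It read 8.12, 8.74, 8.87 and 8.88 with Gadd45a plasmid, against 9.58, 10.01, 9.75 and 10.38 with control plasmid. Its means were 8.65 ± 0.36 and 9.93 ± 0.35 (SD, n = 4 each), a difference of -1.28 and a ratio of 0.413. Array 1 was again the lowest of each group, and the groups did not overlap. A further probe set that lists Gbp7 together with another gene of the family, and so is not counted among the 9, was lower by a like amount, at 6.56 ± 0.69 with Gadd45a plasmid and 7.72 ± 0.30 with control plasmid (SD, n = 4 each; difference -1.17).

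Gbp2, one of the guanylate-binding proteins that carry a lipid anchor, read 8.11, 8.91, 9.13 and 8.97 with Gadd45a plasmid and 9.3, 9.88, 9.62 and 9.89 with control plasmid. Its means were 8.78 ± 0.45 and 9.67 ± 0.28 (SD, n = 4 each), a difference of -0.89. Gbp5, known for its part in inflammasome activation, read 6.75, 7.29, 7.54 and 7.44 with Gadd45a plasmid and 7.88, 8.34, 8.04 and 8.27 with control plasmid. The differences of Gbp2 and Gbp5 were nearly the same size, and neither gene's groups overlapped. Gbp5 had means of 7.25 ± 0.35 and 8.13 ± 0.21 (SD, n = 4 each), a difference of -0.88. Gbp3 read 7.94, 8.43, 8.56 and 8.5 with Gadd45a plasmid and 8.81, 9.2, 8.97 and 9.5 with control plasmid. Its means were 8.36 ± 0.28 and 9.12 ± 0.30 (SD, n = 4 each), and its difference, -0.76, was the smallest of the GTPases although its groups did not overlap.

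Ido1, the first enzyme of the kynurenine pathway, is described next. It read 5.14, 5.34, 5.72 and 5.37 with Gadd45a plasmid and 6.21, 6.41, 6.19 and 6.32 with control plasmid. The means were 5.39 ± 0.24 and 6.28 ± 0.10 (SD, n = 4 each), a difference of -0.89 and a ratio of 0.541, without overlap. Ido1 had the dimmest probe set among the members by mean over all arrays, with 48.8% of all probe sets dimmer. The control arrays lay within a narrow band, and the Gadd45a arrays were more spread. Socs1, the feedback inhibitor, read 5.93, 6.34, 6.17 and 6.12 with Gadd45a plasmid and 6.62, 6.38, 6.51 and 6.73 with control plasmid. It had the smallest difference of the set, -0.42, with means of 6.14 ± 0.17 and 6.56 ± 0.15 (SD, n = 4 each). Its groups were separated by a narrow gap, between Gadd45a array 2 at 6.34 and control array 2 at 6.38.

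**Figure D2:**
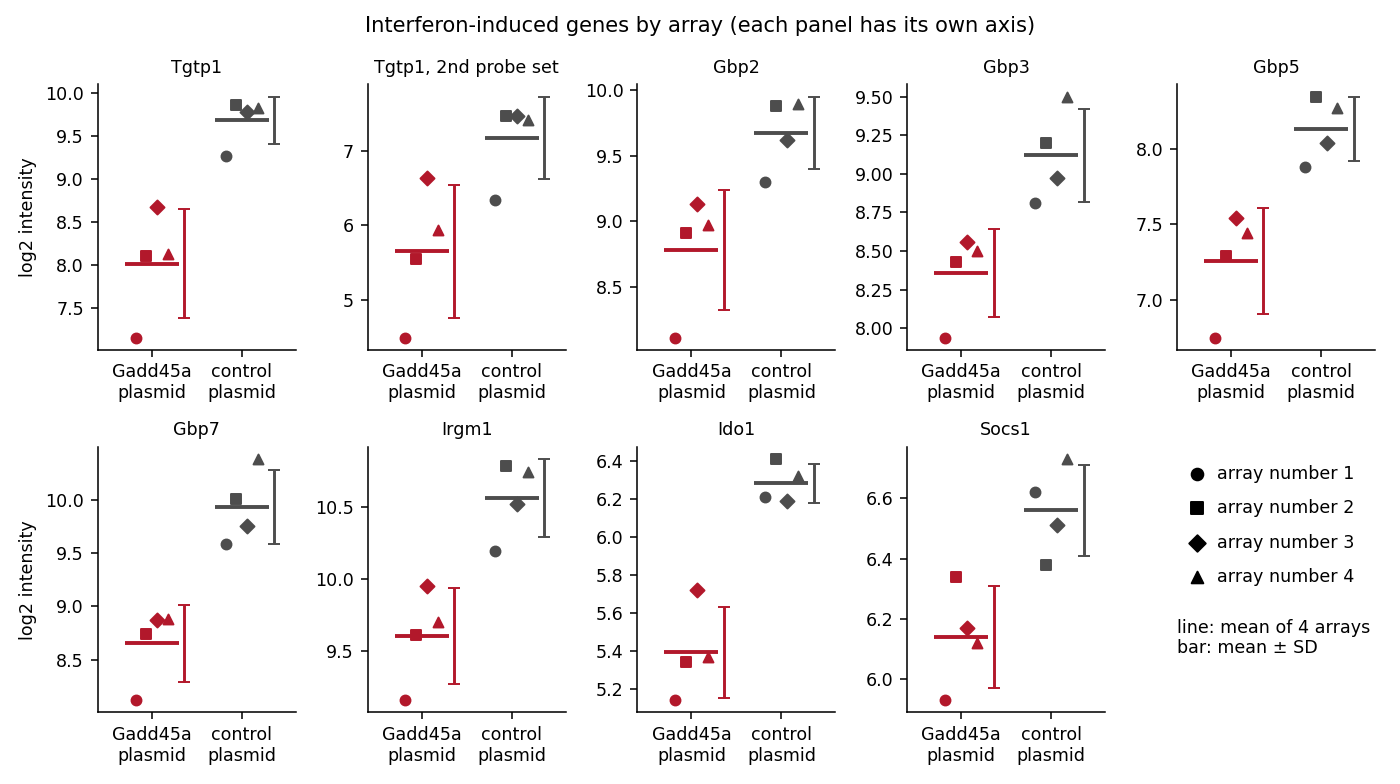
Log2 intensity (vertical axis, a separate scale in each panel) of the 9 probe sets in 4 Gadd45a plasmid and 4 control plasmid arrays. Points are arrays, with the symbol giving the array number, lines are group means and bars show mean ± SD, and only the second probe set of Tgtp1 has groups that overlap.

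Within each group the genes tended to stand high or low on the same arrays. Gadd45a array 1 was the lowest of its group for all 8 genes, with a mean deviation of -0.49 log2 units from the genes' group means and a range of -0.86 to -0.21. Gadd45a array 3 was the highest of its group for 6 of the 8 genes, with a mean deviation of 0.30. Control array 1 was the lowest of its group for 6 of the 8 genes, with a mean deviation of -0.26, the exceptions being Ido1 and Socs1. The highest control value was on array 4 for 4 genes and on array 2 for the other 4. Tgtp1 moved most between arrays within the Gadd45a group, by -0.86 to 0.66. As RNA of 1 muscle is shared by all genes on an array, this common movement is given as a description.

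**Figure D3:**
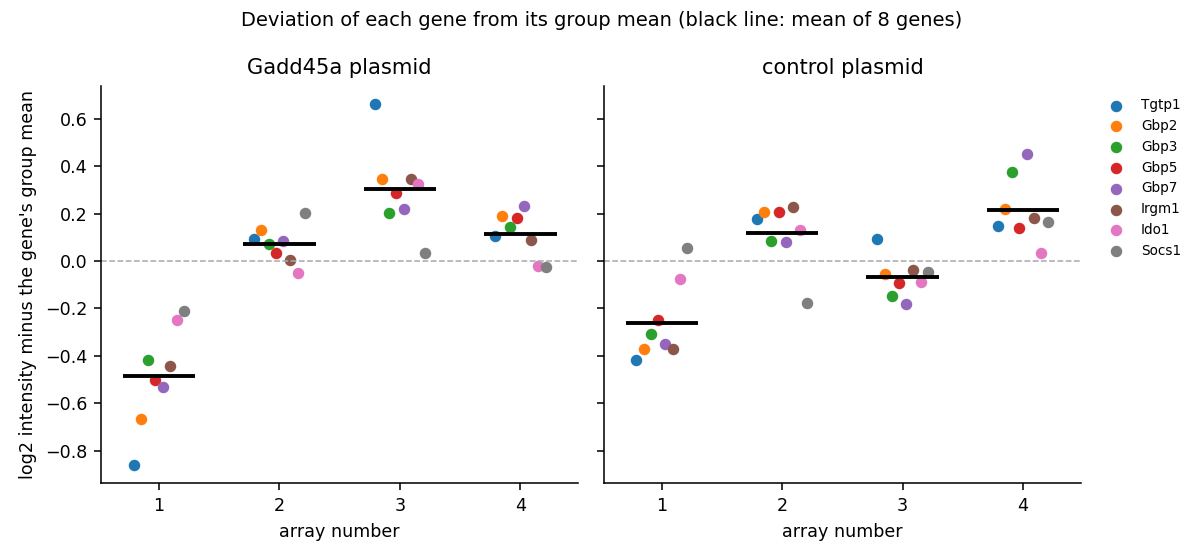
Deviation of each of the 8 genes from its own group mean in log2 units (vertical axis) by array number, Gadd45a plasmid on the left and control plasmid on the right, with black lines for the mean of the 8 genes. The mean was lowest on array 1 in each group, at -0.49 and -0.26, and highest on Gadd45a array 3, at 0.30.

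Leaving out 1 array or both arrays of a number left every gene lower in the Gadd45a muscles. The median over the 8 genes ran from -1.02 to -0.76 in those 12 fits and was -0.76 without Gadd45a array 1. The difference of Tgtp1 ran from -1.89 to -1.38 over all the alternatives tried, that of Gbp7 from -1.41 to -1.10, and that of Socs1 from -0.55 to -0.33.

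The genes most like the set were found by centring each gene on its mean over the 8 arrays and taking the mean absolute difference from the average of the 8 genes over those arrays. The members nearest to the average of the others were Gbp5 (0.063 log2 units) and Irgm1 (0.065), and the farthest was Tgtp1 (0.403), followed by Socs1 (0.325). Outside the set the nearest was Angptl7, a secreted angiopoietin-like protein, at 0.08, with 6.06, 6.57, 6.85 and 6.46 in Gadd45a muscles and 7.08, 7.45, 7.23 and 7.66 in control muscles. Next came Tnfaip2, a gene induced by tumour necrosis factor (0.126), the mitochondrial assembly factor Fmc1 (0.129) and the glutathione transferase Mgst3 (0.136). Cd274, which encodes the checkpoint ligand PD-L1, and the transcription factor Stat5b were both at 0.142, and the phospholipase Plaat3 and the caspase Casp12 were both at 0.153. This measure includes the difference between the groups, so likeness by it is described without a test. Cd274 also belongs to a list of interferon-gamma-induced genes, and its values are given there.

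The wider pathway was read from 9 lists of interferon-related genes, of which 100 genes outside the set were measured by their own probe sets. Tests are from limma with Benjamini-Hochberg adjustment over all 16755 probe sets, at an adjusted p under 0.05, and SE is the standard error of the difference in log2 units, which is Gadd45a plasmid minus control plasmid throughout. Of the 100 genes 15 fell and 10 rose, where 10.3% of all probe sets were called lower and 10.8% higher, and their median log2 fold change was -0.11. The number that fell was 8 without Gadd45a array 1 or without control array 4, 9 without Gadd45a array 2 or without control array 2, and 8, 5 and 4 without both arrays numbered 3, 4 and 2. The number that rose was 6 without Gadd45a array 4, and 4, 4, 3 and 5 without both arrays numbered 1, 2, 3 and 4. The lists are given in turn by their role.

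**Figure D4:**
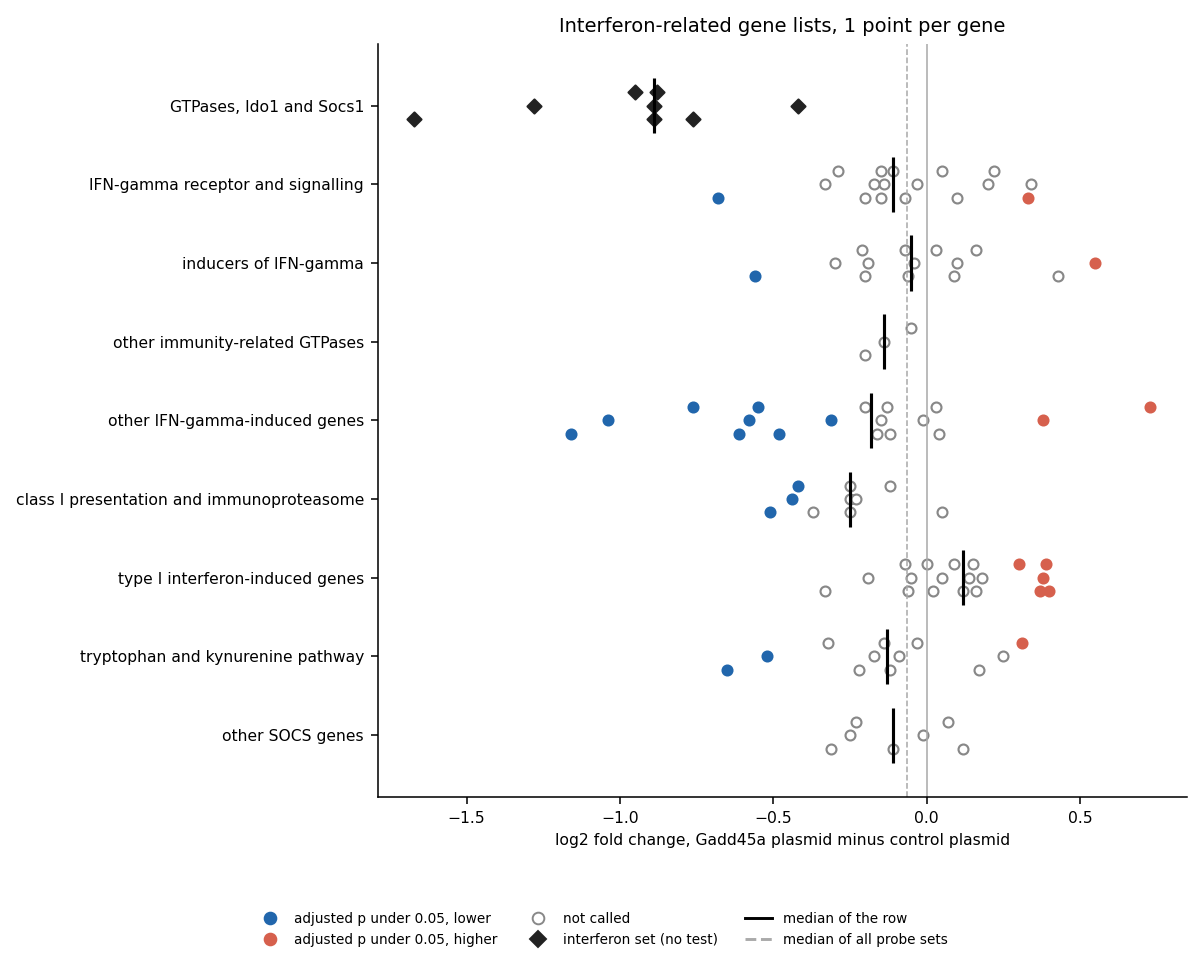
Difference in log2 intensity between Gadd45a plasmid and control plasmid (Gadd45a minus control, horizontal axis) of each measured gene in the interferon-related lists, with the 8 genes of the set in the top row (diamonds, no test). Filled circles passed an adjusted p of 0.05, black bars are medians, and the dashed line is the median of all probe sets (-0.065); the bar of the type I interferon-induced genes lies above 0 at 0.12, that of the set at -0.89.

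The ligand, receptor and signalling genes showed few changes. Of 17 genes 1 fell and 1 rose, with a median of -0.11. The ligand gene Ifng read 5.68, 6.47, 6.2 and 6.33 with Gadd45a plasmid and 6.52, 6.61, 6.4 and 6.3 with control plasmid, and its difference of -0.29 did not pass (SE 0.16, adjusted p = 0.217). Its groups overlapped, and Gadd45a array 1 was the lowest array, as it was for the set. Its highest Gadd45a value was on array 2, whereas the mean of the set was highest on Gadd45a array 3. The kinase gene Jak2, which is tied to the second receptor chain, fell to 7.82, 7.94, 8.03 and 7.89 with Gadd45a plasmid, against 8.58, 8.61, 8.55 and 8.68 with control plasmid (log2 fold change -0.68, SE 0.07, adjusted p = 0.000225). Jak2 passed in each of 12 refits with 1 array, or both arrays of a number, removed. The ligand-binding chain Ifngr1 rose to 8.39 ± 0.07 with Gadd45a plasmid, against 8.06 ± 0.14 with control plasmid (SD, n = 4 each; 0.33, SE 0.08, adjusted p = 0.0223), lost in 5 of 12 refits. Its call was also lost in a limma fit with the sample number as a block (adjusted p = 0.0585).

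Ifngr2, the second receptor chain, differed by -0.14 (adjusted p = 0.2) and Jak1 by -0.07 (adjusted p = 0.439). The transcription factor gene Irf1 read 6.85 ± 0.28 with Gadd45a plasmid and 7.19 ± 0.22 with control plasmid (SD, n = 4 each), and its difference of -0.33 did not pass (SE 0.15, adjusted p = 0.142). It passed in an alternative limma fit with the sample number as a block (adjusted p = 0.036). Among the phosphatases that act against this pathway, Ptpn6 differed by 0.34 (adjusted p = 0.0556) and Ptpn2 by 0.22 (adjusted p = 0.166). In the limma fit with that block Ptpn6 passed (adjusted p = 0.02) and Ptpn2 did not. Stat2 (0.10), Irf9 (-0.11) and Irf8 (-0.03) did not pass. Among 14 genes of cytokines and factors that drive interferon-gamma production, with a median of -0.05, Il15, a cytokine that sustains natural killer cells, fell by 0.56 with overlapping groups (SE 0.16, adjusted p = 0.0342, lost in 8 of 12 refits). Il18, which acts with interleukin-12 to induce the cytokine, rose by 0.55 (SE 0.11, adjusted p = 0.00736, lost in 1 of 12 refits).

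Other GTPases of these families sit mostly on probe sets that list several genes. Of 14 further genes listed with the immunity-related GTPases, 3 had probe sets of their own. Limma called 0 of them, with 0 at an unadjusted p under 0.05. These were Irgc1 (-0.14), Irgq (-0.20) and Gvin1 (-0.05), the last a very large GTPase outside that family. The other genes of this list had no probe set of their own, so the 3 do not stand for the family. None of the remaining guanylate-binding proteins had a probe set of its own. Counted instead as probe sets, after the data were seen, 6 probe sets list only genes of the 2 families and 4 of them fell. Of all probe sets 10.3% were called lower. The 4 include the probe set shared with Gbp7, a gene chosen from this comparison, so the count is a description. Those that fell were 2 of immunity-related GTPases, with log2 fold changes of -1.15 (SE 0.17, adjusted p = 0.00136) and -0.96 (SE 0.19, adjusted p = 0.00673), and 2 of guanylate-binding proteins, with -0.93 (SE 0.22, adjusted p = 0.0154) and the one that also lists Gbp7. The other guanylate-binding probe sets, which list 6 and 5 genes, gave -0.02 and -0.20 and did not pass. No gene is named from these probe sets.

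Further genes that interferon-gamma induces moved both ways, with 8 of 18 falling and 2 rising and a median of -0.18. In 12 refits that removed 1 array or both arrays of a number, 3 to 7 fell, with 5 or fewer after removing Gadd45a array 1 or 2, control array 2 or 4, or both arrays numbered 2, 3 or 4. Cd274 fell to 7.12, 7.56, 7.81 and 7.67 with Gadd45a plasmid, against 8.16, 9.02, 8.57 and 9.05 with control plasmid (log2 fold change -1.16, SE 0.21, adjusted p = 0.0047). The chemokine gene Cxcl11 fell by 1.04 (SE 0.08, adjusted p = 9.35e-05). Ubd, a ubiquitin-like modifier also called FAT10, fell by 0.76 (SE 0.14, adjusted p = 0.00427). All 3 passed in each of those 12 refits, and none of these genes had overlapping groups. The smaller decreases were in the chemokines Cxcl9 (-0.61) and Cxcl10 (-0.48), the antibody receptor Trim21 (-0.58), Parp14 (-0.55) and the inducible nitric oxide synthase Nos2 (-0.31). Their calls were lost in 8, 5, 2, 10 and 10 of the 12 refits, in that order. The DNA sensor Aim2 rose by 0.73 (SE 0.08, adjusted p = 0.000319) and the macrophage Fc receptor Fcgr1 by 0.38 (SE 0.09, adjusted p = 0.0161).

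Genes of class I antigen presentation and the immunoproteasome had a median of -0.25, and 3 of 10 fell. They were the peptidase Erap1 (-0.44, SE 0.10, adjusted p = 0.0117), the proteasome subunit Psmb10 (-0.42, SE 0.12, adjusted p = 0.0314) and the chaperone Tapbpl (-0.51, SE 0.16, adjusted p = 0.0497). Leaving out an array or a number lost these calls in 2, 7 and 9 of the 12 refits. Genes known above all for type I interferon showed no decrease that passed: of 19 genes 0 fell and 5 rose, with a median of 0.12 and 1 lower at an unadjusted limma p under 0.05. The viral RNA sensor Ddx58, also called RIG-I, rose by 0.40 (SE 0.09, adjusted p = 0.0122), the antiviral GTPase Mx1 by 0.39 (SE 0.10, adjusted p = 0.0188), the oligoadenylate synthetase Oas2 by 0.38 (SE 0.10, adjusted p = 0.0281) and the membrane protein Ifitm3 by 0.37 (SE 0.08, adjusted p = 0.00903). Calls of these genes were lost in 2, 4, 8 and 2 of the 12 refits. Between 0 and 5 type I genes rose in those refits, with 3 or fewer without Gadd45a array 1 or 4, control array 1 or 3, or both arrays of any number, and 1 fell without control array 2. The difference between this list and the set was not tested, as the set was chosen from the comparison. The ISRE-type match also occurred outside the set, counted over listed genes with their own probe set and a promoter in the table. Of such type I genes 4 of 13 held it (30.8%), as did 1 of 13 of the further interferon-gamma-induced genes (7.69%). Listed genes without a probe set of their own were not counted.

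Around Ido1, 2 of 12 genes of tryptophan and kynurenine metabolism fell and 1 rose, with a median of -0.13. Wars, the tryptophan tRNA synthetase, which interferon-gamma also induces, read 6.56, 6.79, 7.11 and 7.2 with Gadd45a plasmid and 7.24, 7.75, 7.33 and 7.95 with control plasmid (log2 fold change -0.65, SE 0.19, adjusted p = 0.035). Its call was lost in 8 of the 12 refits. The kynurenine aminotransferase Kyat3 fell by 0.52 (SE 0.11, adjusted p = 0.00971, lost in 2 of 12 refits), and the amino acid transporter Slc7a5 rose by 0.31 (SE 0.08, adjusted p = 0.0204, lost in 6 of 12 refits). Tdo2, the liver enzyme for the same step as Ido1, differed by -0.14 and the kynurenine monooxygenase Kmo by 0.17, neither of which passed. Around Socs1, limma called 0 of the 7 other members of the family, with 2 lower at an unadjusted p under 0.05 and a median of -0.11. The largest differences among them were -0.31 for Socs3 (adjusted p = 0.088) and -0.25 for Cish (adjusted p = 0.136).

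The muscles also differed in markers of other cell types, whose part in the lower signal of the interferon set was not tested. The called counts of each marker list stand beside 10.3% of all probe sets called lower and 10.8% called higher. The transfected gene Gadd45a read 10.33 ± 0.12 with Gadd45a plasmid and 7.76 ± 0.08 with control plasmid (SD, n = 4 each; exact 2-sided permutation p = 0.0286, the smallest that 70 labellings allow), so the labels were borne out. Fibre markers had a mean over 10 genes of 11.4 log2 units on the Gadd45a arrays and of 11.6 to 11.7 on the control arrays. Of these, 4 fell: the myoglobin gene Mb (-0.78), the sarcomeric actinin Actn3 (-0.54), the creatine kinase Ckm (-0.51) and the calcium pump Atp2a1 (-0.48). Levels of different probe sets cannot be ranked as expression, so these values show only that fibre markers gave signal on every array.

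Of the endothelial markers, 9 of 12 fell and 0 rose (3 to 8 fell in the 12 refits, 5 or fewer without Gadd45a array 3, control array 2 or both arrays of any number), with a median of -0.30 and a mean level of 6.42 to 6.48 on the Gadd45a arrays and 6.74 to 6.76 on the control arrays. The largest decreases were in the angiopoietin receptor Tek (-0.58, SE 0.08), Esam (-0.47, SE 0.09), the VEGF receptor Kdr (-0.44, SE 0.08) and the cadherin Cdh5 (-0.38, SE 0.08). Macrophage and monocyte markers went the other way, with 7 of 12 rising and 0 falling (7 or 8 rose in the 12 refits), a median of 0.55, and a mean level of 7.82 to 8.06 on the Gadd45a arrays and 7.16 to 7.39 on the control arrays. C1qa (1.23), Adgre1 (1.05), Cd68 (1.05) and Csf1r (0.97) led them.

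T and natural killer cell markers had a median of 0.03, with 2 of 12 rising and 2 falling, and a mean level of 6.35 to 6.65 on the Gadd45a arrays and 6.38 to 6.46 on the control arrays. The T cell receptor subunits Cd3g (0.78, SE 0.13) and Cd3e (0.46, SE 0.10) rose, while the granzymes Gzmb (-0.96, SE 0.10, adjusted p = 0.000278) and Gzma (-0.51, SE 0.14, adjusted p = 0.0331, lost in 8 of 12 refits) fell. Gzmb read 6.39, 6.29, 6.59 and 6.62 with Gadd45a plasmid, against 7.41, 7.56, 7.52 and 7.24 with control plasmid. Within the Gadd45a group Gzmb was lowest on array 2. Gzma read 6.96, 7.25, 7.56 and 7.37 with Gadd45a plasmid, against 7.58, 7.85, 8.07 and 7.67 with control plasmid, and within the Gadd45a group it was lowest on array 1 and highest on array 3, as the interferon set was. Within the control group Gzma was lowest on array 1, as was the mean of the set. Gzma was highest there on array 3, whereas the mean of the set was highest on array 4. Likeness in array order was not tested. Fibroblast markers rose in 6 of 8 genes (3 to 5 in the 12 refits, median 0.34, led by Dpt at 0.68, Col3a1 at 0.58, Pdgfra at 0.58 and Lum at 0.39, lost in 9 of them), and adipocyte markers fell in 4 of 6 (1 to 3 in the 12 refits, median -0.30, led by Adipoq at -0.73 and Fabp4 at -0.40, with Retn and Cidec both at -0.30 and both lost in 9 of them). The fibroblast count was 3 without Gadd45a array 1, 2 or 4 or both arrays numbered 1, 2 or 4, and the adipocyte count was 1 or 2 without Gadd45a array 3 or 4, control array 2 or 4, or both arrays numbered 2 or 4. Dendritic cell markers gave 1 increase in 7 genes (Clec9a at 0.56, lost in 8 of 12 refits, with Ccr7 at 0.30 not passing), B cell markers 1 increase and 1 decrease in 6 (Cd22 at 0.50, Blk at -0.25, the decrease lost in 10 of 12 refits), and neutrophil markers 1 increase and 1 decrease in 7 (Csf3r at 0.47, lost in 7 of 12 refits, and Cxcr2 at -0.63, lost in 8). The largest differences among the neutrophil markers did not pass: the calprotectin gene S100a8 read 4.18, 6.49, 8.59 and 5.53 with Gadd45a plasmid, against 8.23, 7.49, 8.61 and 8.58 with control plasmid (-2.03, adjusted p = 0.087), and its partner S100a9 differed by -1.95 (adjusted p = 0.078). Retnlg differed by 0.49 (adjusted p = 0.294). The mean level of the neutrophil markers was spread widely, at 5.33 to 6.72 on the Gadd45a arrays and 6.01 to 6.86 on the control arrays, with a median difference of -0.53. Within the Gadd45a group this mean was lowest on array 1 and highest on array 3, as for the interferon set, whereas within the control group it was lowest on array 2 and highest on array 3, unlike the set. On the Gadd45a and the control arrays the mean levels were 8.59 to 8.72 and 8.32 to 8.38 for fibroblast markers, 5.71 to 5.93 and 6.17 to 6.24 for adipocyte markers, 5.88 to 6.05 and 5.71 to 5.93 for dendritic cell markers, and 5.09 to 5.17 and 5.05 to 5.14 for B cell markers.

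**Figure D5:**
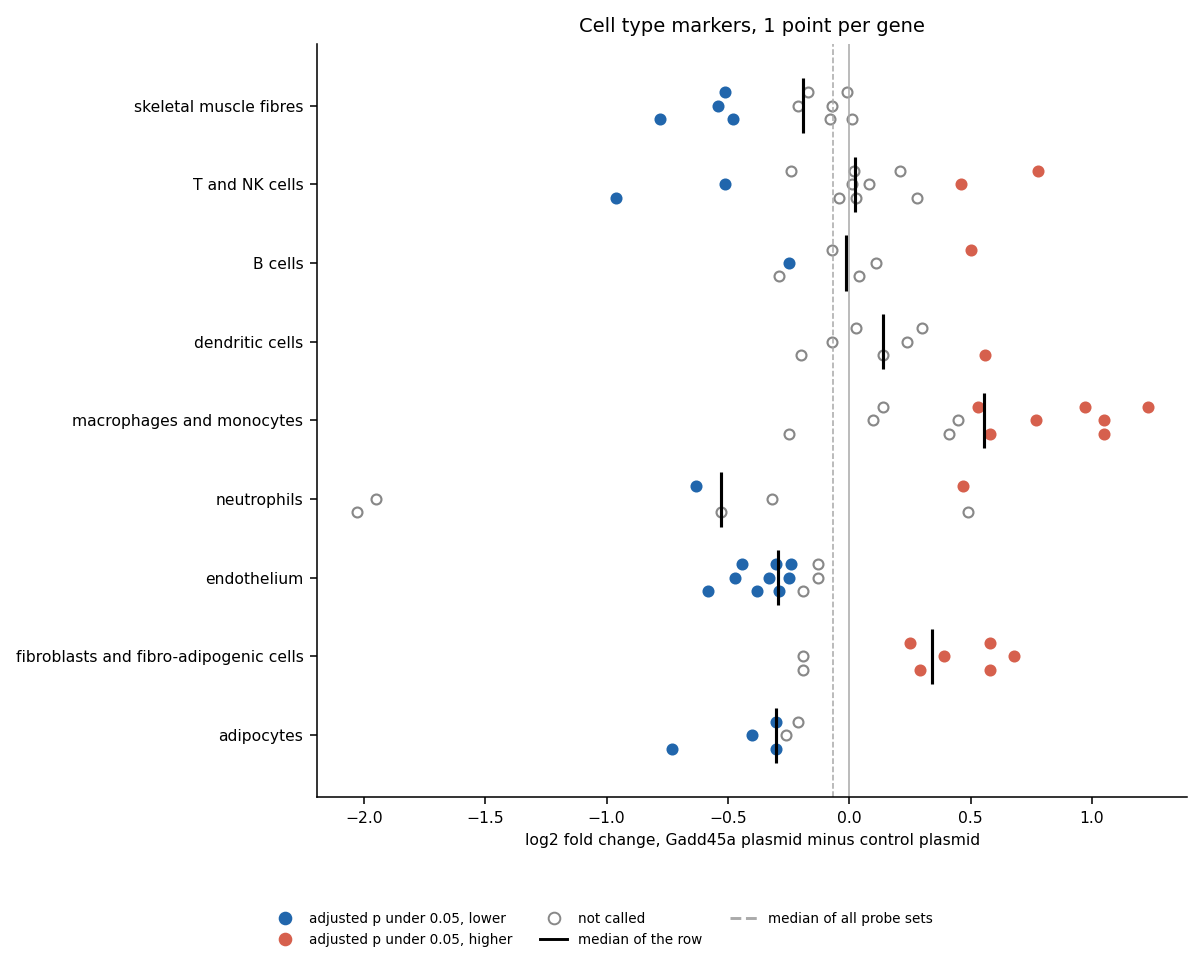
Difference in log2 intensity between Gadd45a plasmid and control plasmid (Gadd45a minus control, horizontal axis) of cell type markers, 1 point per gene and 1 row per list, with filled circles for an adjusted p under 0.05, black bars for medians and the dashed line for the median of all probe sets (-0.065). Endothelial markers lie below 0 (median -0.30) and most macrophage markers above it (median 0.55).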

How the data were processed

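RNA of 4 Gadd45a plasmid and 4 control plasmid muscles was measured on microarrays. Per the labels' protocols it was amplified to cDNA and labelled with biotin. Values were deposited as log2 intensities, with 1 value for each probe set on each array. GCOS, RMA and mm9 are named, without versions, per the submitters' processing notes. RMA quantile-normalizes arrays and compresses changes of dim probe sets. Array medians ran from 5.852 to 5.919, with 0 missing values. Precision is limited by the number of arrays.

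Of 16755 probe sets 14996 had 1 gene symbol, 1019 several and 740 none. Gene identifiers of 14941 matched a RefSeq table (GRCm38.p6), and 0 symbols changed. Of several probe sets the brightest was used, except for the 8 genes, where all are reported.

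No further normalization was applied before the fit, made by lmFit and eBayes of limma 3.58.1 (R 4.3.3, 2-sided) and checked on simulated data. The simulated noise was independent between probe sets, so the check does not cover genes that move together across arrays. Benjamini-Hochberg adjustment ran over all 16755 p-values. The genes, the 9 pathway lists and the 9 marker lists were chosen with earlier results of these data known. From each list up to 4 called genes with the largest changes were named, or the 2 largest where fewer than 2 were called. Also named were some further genes of the receptor list, the measured genes of the GTPase lists and the 8 most alike. Cxcl9, Cxcl10, Trim21, Parp14, Nos2, Fcgr1, Tdo2, Kmo, S100a8, S100a9 and Retnlg, and in the closing section Tap1, C1qb, Ifi27, Tie1 and Robo4, were named after their values were seen. As alternatives, a block for the sample number was fitted, as were other normalizations, filters, variance models and thresholds, and leaving out arrays.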

Additional observations from a re-analysis of the deposited data

Results flagged for a closer look

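An array far from the other 3 of its group was found in 7 of 168 groups of 4 arrays, tested over the set and the named genes, where chance flags about 1 group in 20. Tgtp1 read 9.27 on control array 1, the others being 9.78 to 9.86, and its second probe set read 6.34 there, the others being 7.41 to 7.47. Without control array 1 the differences of these probe sets grew, and both stayed negative. Control array 1 was also low for Stat5b, at 8.04 (others 8.19 to 8.21), and for Pias1, at 8.16 (others 8.29 to 8.32). Psmb10 was high on control array 4, at 8.03 (others 7.63 to 7.67). Atp2a1 was high on Gadd45a array 4, at 11.58 (others 11.44 to 11.45), and Cxcr2 on Gadd45a array 3, at 5.77 (others 5.15 to 5.19).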

How the results depend on the processing

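Each of the 9 probe sets kept its sign under every alternative that could be run. Ido1 was left out with the dim probe sets. With 12 fits that left out arrays, changed probe sets numbered 1876 to 3174 in place of 3542 (2170, 1876, 2321 and 2027 without the arrays numbered 1, 2, 3 and 4), pathway genes that fell 4 to 14 in place of 15, and those that rose 3 to 10 in place of 10. Fewer arrays were fitted in each. At an adjusted p under 0.01 the counts were 1630, 5 and 3. The other GTPases gave 0 calls by gene and 4 with probe sets of several symbols, which include the probe set that also lists Gbp7. Of 1489 comparisons of an alternative with the main result for 75 genes, 175 lost a call, 9 gained one and 0 reversed. These include the stricter threshold of 0.01 in the main fit as well as refits. Same-numbered arrays of the groups correlated at only 0.045 to 0.097 in their deviations from group means, though each Gadd45a array correlated best with its own number. The labels do not say whether same-numbered muscles came from the same mouse, and these correlations cannot settle it. The main fit treated the muscles as unpaired. With the sample number as a block, 3171 probe sets changed, 16 pathway genes fell and 9 rose. Irf1 (adjusted p = 0.036) and Ptpn6 (0.02) then passed, as did Tap1 and C1qb, while Ifngr1 (0.0585), Nos2, Ifi27, Blk, Tie1, Robo4, Cidec and Retn lost their calls. In this balanced design the block cannot change the differences themselves, so the median of the set is -0.89 by construction.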
